A study of Mus musculus with 16 samples.

Results

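The genes of retinoid metabolism described here are 9 of the 24063 genes in each of the deposited tables. The cells were AtT-20, a corticotrope line of mouse pituitary. The 9 genes were chosen by symbol: the retinal reductase Dhrs3, the retinol dehydrogenases Rdh10 and Rdh11, the retinaldehyde dehydrogenases Aldh1a1, Aldh1a2 and Aldh1a3, the cellular retinoic acid binding proteins Crabp1 and Crabp2, and the retinoic acid hydroxylase Cyp26b1. Dhrs3 led the choice because it fell in the ER-Pax7 libraries, so its values there are a description and carry no test. Of the 9 genes, 5 passed the filter on low values in the ER-Pax7 libraries and 3 in the Neo and Pax7 libraries.

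The study sequenced total RNA, depleted of ribosomal RNA, from AtT-20 cells expressing Pax7, a paired and homeodomain transcription factor that specifies melanotropes, the other Pomc-expressing cells of the pituitary. A first set had 2 libraries of cells with 3x flag-Neo and 2 of cells with 3x flag-Pax7, none of them treated. A second set had cells with 3x flag-ER-Pax7, a fusion of Pax7 to the estrogen receptor part that responds to 4-hydroxytamoxifen, with 3 libraries each of non-treated cells (0 h) and of cells after 12, 24 and 96 h of 4-hydroxy-Tamoxifen. No library held treated cells without ER-Pax7, so the drug and the fusion cannot be told apart, and Neo against Pax7 sets 1 population beside 1 other. Nothing in the labels calls replicates separate cultures; a p-value here reflects the spread among these libraries, which may be technical.

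Retinol enters cells, is held by carrier proteins and is oxidised reversibly to retinal by dehydrogenases such as Rdh10, while Dhrs3 runs that step backwards and returns retinal to retinol. Retinaldehyde dehydrogenases then make retinoic acid irreversibly. Crabp proteins bind retinoic acid in the cytoplasm, Cyp26 enzymes degrade it, and the retinoic acid and retinoid X receptors carry it to target genes, among which Dhrs3 itself is known as a feedback target. In pituitary cells retinoic acid is known to act on hormone genes, Pomc among them.

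The ER-Pax7 libraries held 61.4 M to 88.7 M recovered read mates. A single library, 12 h replicate 2, stood apart: Rn45s, a ribosomal precursor, took 2.35% of its mates, while elsewhere it took 0.753% to 1.26%, and values without it are given beside the results at 12 h. Pax7 was at 0 and 0.0104 FPKM in Neo and at 2.28 and 2.36 in Pax7, and its scaled exon reads were already high at 0 h in the ER-Pax7 libraries, where the whole range was 1646 to 1909. The 6 corticotrope markers, Pomc and Tbx19 among them, were detected in every group, and Prl, Tshb and Fshb were at 0 in every ER-Pax7 library.

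Start regions are shown for Dhrs3, the member with the clear change, and for Rdh11, the member with the highest level. RefSeq on GRCm38.p6, the build of the files (mm10), gave start regions for 6 of the 9 genes, each running from 250 bases before to 50 bases after an annotated start. Dhrs3 had 3 such windows, because its annotated starts spread over 310 bases, and the deposited tables used different ones: the Neo and Pax7 table used the entry that starts at chr4:144892827 and the ER-Pax7 table the entry that starts at chr4:144893137. The 250 bases before the outer Dhrs3 start are chr4:144892577-144892826, plus strand, and the 250 bases before the outer Rdh11 start are chr12:79191856-79192105, minus strand. Each is written 5′ to 3′, with capitals for a hexamer that retinoic acid receptors can bind.
Dhrs3: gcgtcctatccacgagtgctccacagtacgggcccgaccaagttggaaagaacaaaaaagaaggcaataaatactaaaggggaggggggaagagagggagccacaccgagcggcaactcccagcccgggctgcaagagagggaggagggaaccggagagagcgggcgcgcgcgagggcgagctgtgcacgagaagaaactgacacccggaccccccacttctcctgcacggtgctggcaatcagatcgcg
Rdh11: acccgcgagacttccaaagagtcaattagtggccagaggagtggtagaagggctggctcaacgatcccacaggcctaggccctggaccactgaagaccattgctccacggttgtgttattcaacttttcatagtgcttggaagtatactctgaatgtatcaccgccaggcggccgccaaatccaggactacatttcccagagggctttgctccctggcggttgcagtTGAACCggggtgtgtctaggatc

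The hexamers searched, on both strands of the 300-base windows, were AGGTCA (in 16.3% of all 32851 windows), AGTTCA (in 13.99%), GGGTCA (in 13.7%) and GGTTCA (in 10.4%). At least 1 of them was in 43.7% of all windows, so a match is common. The 3 Dhrs3 windows held none, and 3 of the 10 windows of these genes held any: the outer Rdh11 window above, with GGTTCA on the opposite strand 23 bases before the start, the inner Rdh11 window and a window of Aldh1a1. The direct repeat of AGGTCA known as DR5 was in 0.00913% of all windows and in none of these genes. For paired homeodomain factors TAATTA was searched (in 5.29% of all windows) with GTCACG, the core of paired domain sites (in 8.22%), and the TAAT palindromes known as P2 and P3 (in 0.390% and 0.487%). The inner Rdh11 window, chr12:79190912-79191211, held TAATTA at 213 and 159 bases before that start, the first of them within a P3 palindrome, and the other windows of these genes held none of these. No window was matched for Rdh10, Aldh1a3 or Crabp2. The outer Dhrs3 window was rich in CpG, with 21 against a median of 7 over all windows. These counts describe letters in short windows and say nothing of factor binding.

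Dhrs3, which encodes the enzyme that reduces retinal to retinol, was lower at every time of 4-hydroxytamoxifen and lower in Pax7 than in Neo. In the ER-Pax7 table its entry spans chr4:144893137-144927645 and was counted over 1705 bases of exons. Its scaled exon reads (the authors' normalised read values divided by TMM factors) were 44.2, 36.4 and 41.0 at 0 h, on 312 to 502 read mates per library. At 12 h they were 20.2, 19.0 and 20.0. At 24 h they were 15.3, 15.1 and 16.4, and at 96 h 13.8, 16.0 and 15.8. All 9 treated libraries lay below the 3 non-treated ones. The means were 40.6 ± 3.91, 19.7 ± 0.625, 15.6 ± 0.700 and 15.2 ± 1.21 (SD, n = 3 each), so that 48.7%, 38.5% and 37.5% of the 0 h level remained at 12, 24 and 96 h. On the scale of log2(value + 1) these were differences of -0.999, -1.32 and -1.36, and the first was -0.97 without the library that stood apart. The comparisons with 0 h share the same 3 non-treated libraries.

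**Figure D1:**
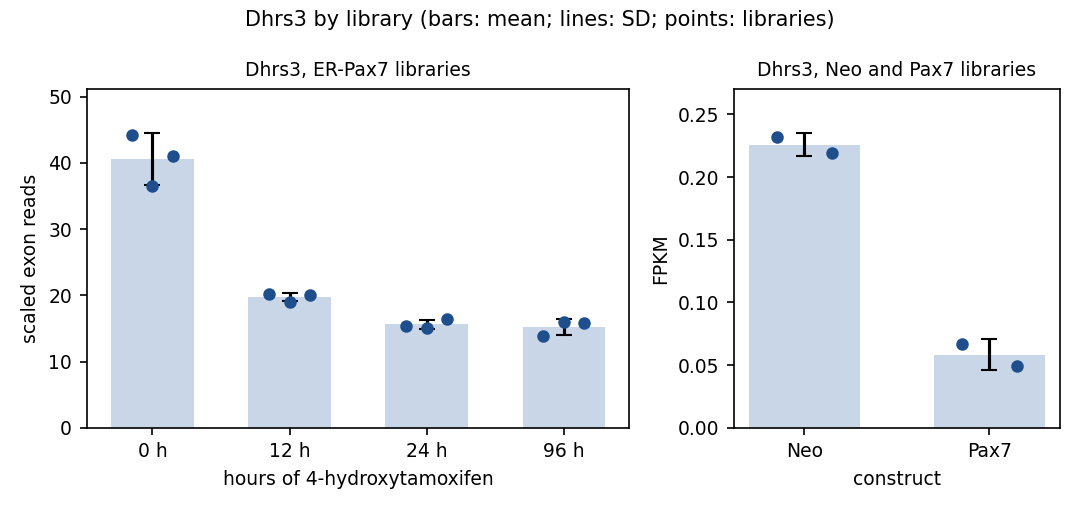
Dhrs3 in each library, as scaled exon reads at 0, 12, 24 and 96 h of 4-hydroxytamoxifen (left) and as FPKM in Neo and Pax7 (right). Bars are means, lines SD and points libraries. The 9 treated libraries lie between 13.8 and 20.2, below the lowest 0 h library at 36.4, and both Pax7 libraries lie below both Neo libraries.

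Most of the difference was there at the first time measured. Between 12 and 24 h the Dhrs3 values did not overlap and the difference was -0.32, and between 24 and 96 h they overlapped with a difference of -0.04. Among the 15188 genes tested, Dhrs3 had the 13th lowest log2 fold change at 12 h, the 12th lowest at 24 h and the 38th lowest at 96 h. Dhrs3 was chosen for its fall in these libraries, so nothing is read from these ranks. In the authors' deposited table the log2 folds of Dhrs3, from the same libraries, were -1.03, -1.37 and -1.39. In bulk RNA, fewer cells that hold a transcript and less RNA per cell cannot be told apart.

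Markers of this line and of other cells were read beside the Dhrs3 values. The summed scaled exon reads of 5 folliculostellate and stem cell genes were 98.1 to 104 at 0 h, 87.2 to 90.7 at 12 h, 90.6 to 96.3 at 24 h and 120.1 to 122.7 at 96 h. Sox9 rose from 17.1 ± 2.54 to 38.9 ± 1.47 and Aldh1l1 from 6.24 ± 1.09 to 21.2 ± 1.82 scaled exon reads between 0 and 96 h (limma adjusted p = 1.31e-07 and 1.92e-08, n = 3 each), while Sox2 fell from 76.4 ± 2.30 to 59.5 ± 3.52 (limma adjusted p = 0.000595). At 12 h 1 of the 4 tested, Aldh1l1, was called higher, at 10.5 ± 1.25, and 1, Sox2, lower, at 62.1 ± 1.79 (limma adjusted p = 0.00413 and 0.0129, n = 3 each). The 6 fibroblast and stroma genes summed to 23.6 to 32.1 at 0 h and 17.95 to 23.7 at 96 h, with Col1a2 and Dcn at 0 in both groups. Of the 6 corticotrope markers, 0 were called higher and 2 lower at 12 h. At 24 h 1 was higher and 3 lower, and at 96 h 4 and 1. Their summed scaled exon reads were 103213 to 108313 at 0 h and 92133 to 97417 at 12 h. They were 85322 to 87426 at 24 h and 102578 to 109880 at 96 h. Pomc alone was at 90200 to 95371 at 0 h and 80380 to 85478 at 12 h, so these sums mostly followed Pomc. Over all genes tested 6.53%, 13.6% and 33.8% were called at 12, 24 and 96 h. Single markers differed in direction. Crhr1 had 19.6 ± 2.85 scaled exon reads in non-treated cells, 9.94 ± 1.05 after 24 h and 13.1 ± 1.12 after 96 h. Tbx19 went the other way, with 2785 to 2952 scaled exon reads in non-treated libraries and 3411 to 3533 after 96 h. The part of these markers in the Dhrs3 values was not tested.

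The genes were chosen with earlier results of these data known, so the test of Dhrs3 below is not that of an unselected gene. The Neo and Pax7 libraries gave Dhrs3 values in the same direction as the ER-Pax7 libraries. There Dhrs3 was counted over its whole gene body of 34818 bases, introns included, so its FPKM is not on the scale of the exon reads. It was 0.232 and 0.219 FPKM in Neo and 0.0669 and 0.0496 in Pax7, and the groups did not overlap. The deposited FPKM have 2 decimals, and for Dhrs3 in Pax7 they are 0.07 and 0.05, so further digits come from scaling. Pax7 kept 25.8% of the Neo mean, a log2 difference of -1.04 with a standard error of 0.09 on the scale of log2(FPKM + 0.1) (limma adjusted p = 0.00534, n = 2 each). Dhrs3 passed the filter of 0.1 FPKM in 2 libraries only through Neo, where it is high, and with no filter its limma adjusted p was 0.0109. Leaving out any 1 of the 4 libraries kept the call (limma adjusted p 0.0342 to 0.0398). With a pseudocount of 0.5 the difference was -0.38, still called. In the authors' deposited table Dhrs3 has a log2 fold of 0 and an FDR of 1 for this comparison, where 24 genes in all are under an FDR of 0.05. The deposited FPKM of Dhrs3 differ between the groups, and so do those of Rdh10, which also has a log2 fold of 0 there. That 0 is therefore not the ratio of the deposited FPKM. Cell type markers moved in this comparison too. Of 6 corticotrope markers 1 was called higher, Pcsk1, and 3 lower, Crhr1, Pitx1 and Neurod1, with sums of 2547 to 2551 FPKM in Neo and 2347 to 2491 in Pax7. Most of each sum was Pomc, at 2496 and 2502 FPKM in Neo and 2284 and 2428 in Pax7. Of 2 folliculostellate and stem cell genes tested Sox9 was called higher and Sox2 lower, with sums over all 5 of 3.38 to 3.55 FPKM in Neo and 3.12 in both Pax7 libraries. The 1 leukocyte gene tested, Cd68, was called higher, with sums of 0.172 to 0.177 FPKM in Neo and 0.315 to 0.427 in Pax7 and with Ptprc, Emr1 and Cd3e at 0 in both groups. Their part in the Dhrs3 values was not tested.

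Counts of called genes read against the background as follows. In Pax7 against Neo all 3 genes that passed the filter were called, Rdh11 higher and Dhrs3 and Rdh10 lower, where 36.6% of the 13393 genes tested were called, 18.1% higher and 18.5% lower. All 3 had groups that did not overlap, as did 73.8% of all genes tested. Scaled by library totals, 2600 of 3841 called genes were higher (67.7%) against 2424 of 4906 (49.4%), and the 3 genes kept their directions and calls. In the ER-Pax7 libraries 1 of 5 tested genes, Dhrs3, was called at each time against 0 h, where 6.53%, 13.6% and 33.8% of 15188 genes were called at 12, 24 and 96 h. Groups did not overlap for 1, 2 and 1 of the 5 genes at those times, Dhrs3 each time and Rdh10 at 24 h, where that held for 20.3%, 28.2% and 45.9% of all genes. Since Dhrs3 was chosen on this contrast, nothing is read from that count. Between 24 and 12 h none of the 5 was called by limma, edgeR or DESeq2, where limma called 0.158% of all genes. Of the 4 besides Dhrs3, 0 had an unadjusted p under 0.05 in limma there. The Dhrs3 groups did not overlap, as for 13.1% of all genes, and nothing is read from that either. Between 96 and 24 h 1 of 5 was called, Rdh11, higher, where 12.6% of all genes were called and 6.03% were called higher. Groups did not overlap for 2 of 5, Rdh10 and Rdh11, against 30.7% of all genes.

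**Figure D2:**
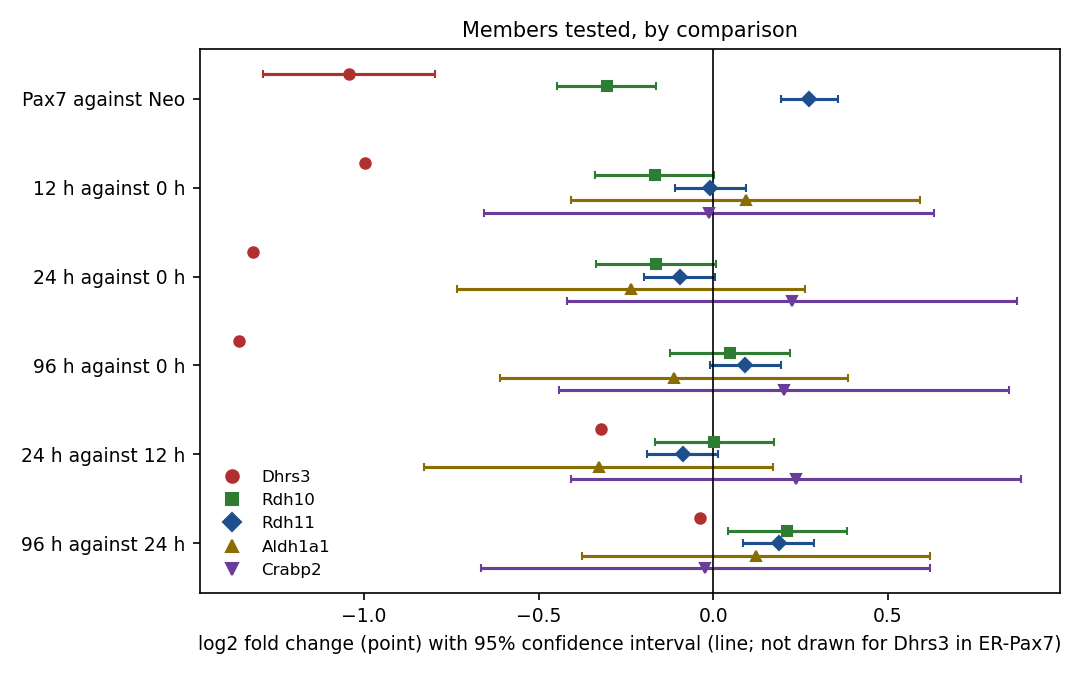
Log2 fold changes of the genes tested in each of 6 comparisons, on the log2(value + pseudocount) scale, with 95% confidence intervals from limma. Dhrs3 lies at -1.04 in Pax7 against Neo and at -0.999, -1.32 and -1.36 at 12, 24 and 96 h against 0 h, where it is a description drawn without an interval. Rdh10 and Rdh11 stay within 0.31 of 0 throughout, and the intervals of Aldh1a1 and Crabp2 are wide.

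Rdh10, the dehydrogenase that oxidises retinol to retinal and so works against Dhrs3, differed little in the ER-Pax7 libraries and was lower in Pax7 than in Neo. Its entry spans chr1:16105882-16132550. Its scaled exon reads were 53.4, 51.7 and 55.6 at 0 h. After 12 h they were 45.0, 45.4 and 52.7, after 24 h 47.5, 46.2 and 49.5, and after 96 h 59.1, 53.8 and 53.5. The 24 h libraries all lay below the 0 h ones, whereas the 12 h and 96 h libraries overlapped them. None of the differences from 0 h was called: -0.17 at 12 h (95% confidence interval -0.34 to 0.00), -0.16 at 24 h (-0.33 to 0.01) and 0.05 at 96 h (-0.12 to 0.22), with limma adjusted p of 0.312, 0.216 and 0.695. From 24 to 96 h the values did not overlap and the difference was 0.21, with a limma adjusted p of 0.0981. In Neo, Rdh10 was 0.354 and 0.355 FPKM, and in Pax7 it was 0.268 in both libraries, from deposited values of 0.28 and 0.27. Pax7 had 75.6% of the Neo mean, a log2 difference of -0.30 with a standard error of 0.05 (limma adjusted p = 0.0184, n = 2 each). Leaving out Neo replicate 1, Neo replicate 2, Pax7 replicate 1 or Pax7 replicate 2 each ended that call (limma adjusted p 0.0795 to 0.0892), and with a pseudocount of 0.5 the difference was -0.15. In the authors' deposited table Rdh10 has a log2 fold of 0 in Pax7 against Neo and is not under an FDR of 0.05.

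Rdh11, a retinal reductase and retinol dehydrogenase of broad expression, was far more abundant than the other genes and moved little. Its entry spans chr12:79175551-79191819. Scaled exon reads were 739, 745 and 772 at 0 h. The 12 h libraries had 786, 739 and 718, the 24 h libraries 645, 727 and 742, and the 96 h libraries 838, 770 and 798. Each treated group overlapped the 0 h libraries, and 24 h replicate 1 was the lowest of all 12 libraries and 96 h replicate 1 the highest. The differences from 0 h were -0.01 at 12 h (95% confidence interval -0.11 to 0.09), -0.10 at 24 h (-0.20 to 0.01) and 0.09 at 96 h (-0.01 to 0.19), and none was called (limma adjusted p 0.964, 0.225 and 0.159). Rdh11 rose between 24 and 96 h by 0.19 with a standard error of 0.05 (limma adjusted p = 0.0135, n = 3 each). Without 24 h replicate 1 the difference was 0.13 and no longer called (limma adjusted p = 0.0828), and without 96 h replicate 1 it was 0.16, also not called (limma adjusted p = 0.0808). In the authors' deposited table this difference has an FDR of 0.0304.

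In the Neo and Pax7 libraries Rdh11 went the other way from Dhrs3 and Rdh10. It was 3.75 and 3.81 FPKM in Neo and 4.59 and 4.60 in Pax7, with no overlap. Pax7 stood at 122% of the Neo mean, a log2 difference of 0.28 with a standard error of 0.03 (limma adjusted p = 0.00755, n = 2 each). The call was lost without Pax7 replicate 1 or Pax7 replicate 2 (limma adjusted p 0.0552 and 0.0580), and held without either Neo library. In the authors' deposited table Rdh11 has a log2 fold of 0.31 in Pax7 against Neo and is not under an FDR of 0.05.

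**Figure D3:**
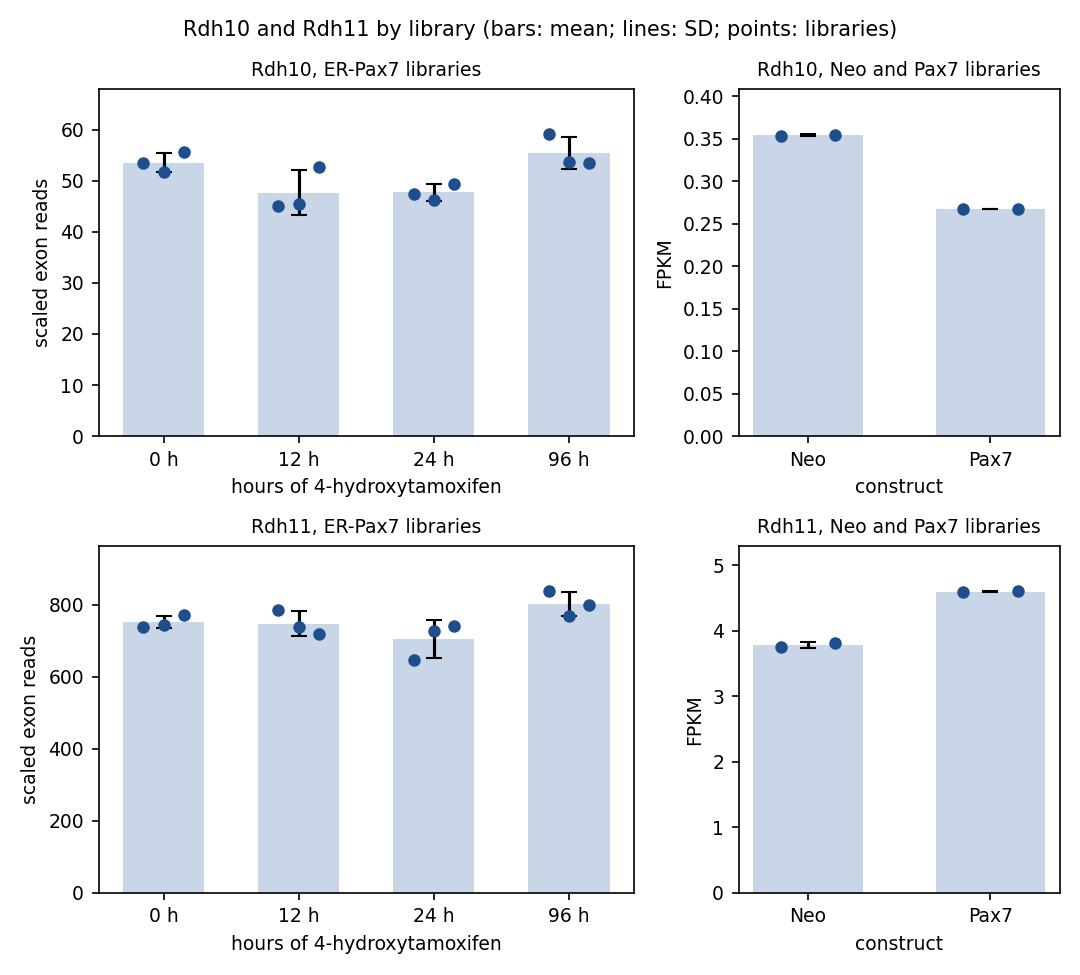
Rdh10 (top) and Rdh11 (bottom) in each library, as scaled exon reads by hours of 4-hydroxytamoxifen (left) and FPKM in Neo and Pax7 (right). Bars are means, lines SD and points libraries, with axes from 0. Rdh10 runs from 45.0 to 59.1 and Rdh11 from 645 to 838 across the ER-Pax7 libraries, while in Pax7 against Neo Rdh10 is lower and Rdh11 higher.

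Levels of different genes were compared per kilobase of exon. At 0 h Rdh11 was at 481 ± 11.4 scaled exon reads per kilobase, above 94.6% of genes in the table. Dhrs3 at 23.8 ± 2.29 and Rdh10 at 23.4 ± 0.838 followed, near the middle, above 56.7% and 56.5% of genes, and did not differ beyond their spread. At 96 h Dhrs3 was at 8.91 ± 0.708 per kilobase, below Rdh10 at 24.3 ± 1.38 (SD, n = 3 each). Rdh11, also a retinal reductase, was at 512 ± 22.0 per kilobase at 96 h, and RNA levels do not give enzyme activity. Crabp2 at 0.962 ± 0.800 and Aldh1a1 at 0.894 ± 0.347 per kilobase at 0 h did not differ beyond their spread either, and the remaining genes were lower. In Neo the order by FPKM was Rdh11 at 3.78, Rdh10 at 0.354 and Dhrs3 at 0.226, above 84.4%, 55.0% and 51.1% of genes. These FPKM are per kilobase of whole gene body, 34818 bases for Dhrs3 and 26668 for Rdh10, against 1705 and 2287 bases of exon. The share of introns differs between genes, so this order cannot be set beside the order per kilobase of exon.

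The 3 Aldh1a genes, which make retinoic acid from retinal, were at or near 0 in every library. Aldh1a1, on chr19:20601982-20643462, had 13 to 21 read mates per library at 0 h and 18 in each 12 h library, then 8 to 18 at 24 h and 14 to 19 at 96 h, and was listed at 0 in all 4 Neo and Pax7 libraries. In the order 0, 12, 24 and 96 h its scaled exon reads were 1.80 ± 0.700, 1.93 ± 0.102, 1.36 ± 0.507 and 1.56 ± 0.403 (SD, n = 3 each). No comparison called it, and the 95% confidence interval at 96 h, from -0.61 to 0.39 on the log2 scale, leaves room for a change in either direction. Aldh1a2, on chr9:71215789-71296243, had 0 mates in all 12 ER-Pax7 libraries. If mates were independent, that would allow up to 3 of them, or 0.244 to 0.353 scaled exon reads per library, by counting error alone. Mates of the same fragment are not independent, so the true limit is higher. Aldh1a3, on chr7:66390893-66427477, had 0 to 2 mates and was not tested. In the Neo and Pax7 table Aldh1a2 is listed at 0 and Aldh1a3 at no more than 0.01 FPKM.

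The binding proteins and the hydroxylase were as scarce. Crabp2, on chr3:87948693-87953372, had 2 to 20 mates in the 0 h libraries and 3 to 16 in the 12 and 24 h ones, and 9 to 14 at 96 h. The 0 h libraries alone spanned 0.231 to 1.64 scaled exon reads, a range that held every treated library except 24 h replicate 3 at 1.67, and no comparison called Crabp2. At 96 h its log2 difference was 0.20 with a 95% confidence interval of -0.44 to 0.85. Crabp1, on chr9:54764748-54773110, had 0 mates in all 12 ER-Pax7 libraries and is listed at 0 in the other 4. Cyp26b1, on chr6:84571414-84593810, had 0, 8 and 8 mates at 0 h and 0 to 6 in the treated libraries, and was not tested. At these depths a fall in Crabp1, Cyp26b1, Aldh1a2 or Aldh1a3, or a rise that stays within a few reads, was not detectable.

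**Figure D4:**
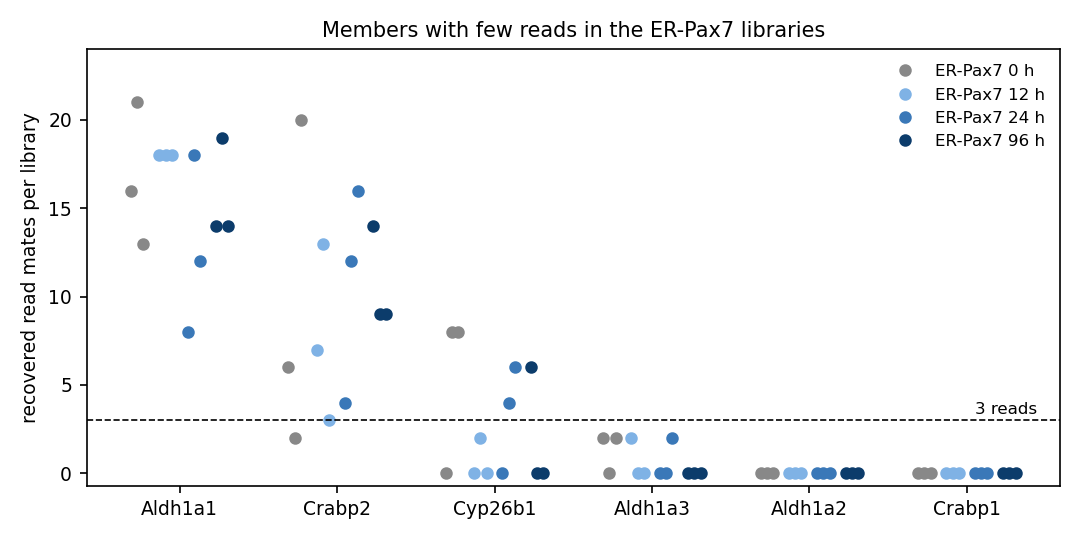
Read mates recovered per ER-Pax7 library for the 6 scarce genes, coloured by hours of 4-hydroxytamoxifen. The dashed line at 3 reads is the limit that a count of 0 would allow if mates were independent. Aldh1a1 has 8 to 21 mates and Crabp2 2 to 20, whereas Aldh1a2 and Crabp1 have 0 in all 12 libraries.

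The wider pathway was read from 82 further genes present in both tables. In Pax7 against Neo 43 were tested, of which 11 were higher and 13 lower, where 18.1% of all genes were higher and 18.5% lower, with a median log2 fold of 0.01 against 0.00 over all genes tested. In the ER-Pax7 libraries 54 were tested: 2 were higher and 3 lower at 12 h, 3 and 6 at 24 h, and 7 and 15 at 96 h. Over all genes tested 2.92% were called higher and 3.61% lower at 12 h, 5.66% and 7.92% at 24 h, and 16.5% and 17.3% at 96 h. The lists had medians of 0.00, -0.04 and -0.02 against 0.00 over all genes each time. Between 24 and 12 h none of the 54 was called by limma, edgeR or DESeq2 and 4 had an unadjusted p under 0.05 in limma (among them Akr1b8, Cyp2s1 and Dhrs7), as did 8.72% of all genes. By adjusted p 0.0724% of all genes were called higher there and 0.0856% lower. Between 96 and 24 h 1 was higher and 3 were lower, against 6.03% and 6.62% of all genes. The 2 carotenoid cleavage genes tested gave no call in the ER-Pax7 libraries, and neither did the 1 other retinal dehydrogenase, Aldh8a1, which had 30.0 ± 3.097 scaled exon reads at 0 h and 24.4 ± 1.26 at 96 h, while in Pax7 against Neo 1 of 1 cleavage gene, Bco1, was higher. Aldh8a1, Bco1 and Dhrs7 were named after their values were seen.

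**Figure D5:**
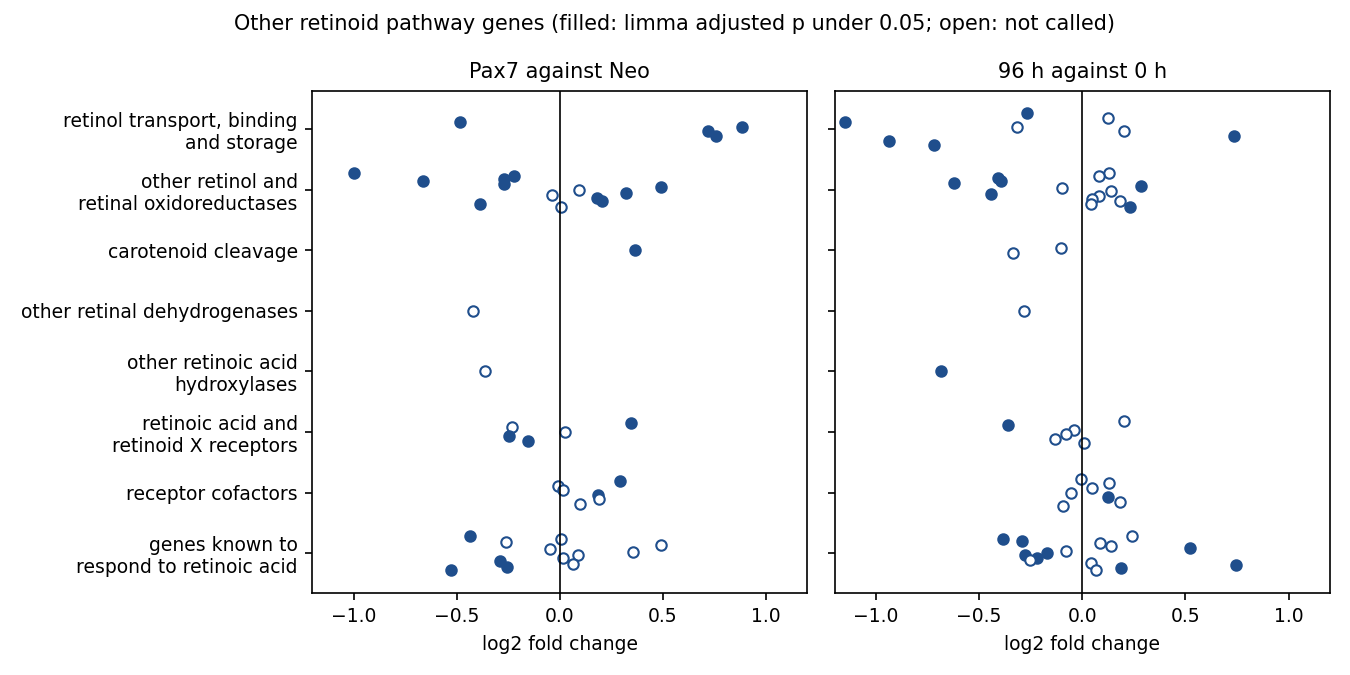
Log2 fold changes of the other retinoid pathway genes tested, by group, for Pax7 against Neo (left, 43 genes) and 96 h against 0 h (right, 54 genes). Filled points were called by limma and open points were not. Called genes lie on both sides of 0, with 11 higher and 13 lower in Pax7 against Neo and 7 higher and 15 lower at 96 h.

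Among the 13 genes of retinol transport, binding and storage, the retinol binding protein Rbp7 was higher at every time after 0 h and in Pax7. It had 26.4, 22.2 and 24.2 scaled exon reads at 0 h and 38.0, 32.5 and 37.9 after 12 h. After 24 h it had 38.5, 38.8 and 45.8, and after 96 h 42.5, 36.7 and 44.3, with every treated library above the non-treated ones. The log2 differences were 0.56, 0.73 and 0.74 (limma adjusted p = 0.00155, 4.32e-05 and 1.42e-05, n = 3 each), and each call held without any 1 library. In Neo Rbp7 was 0.414 and 0.324 FPKM and in Pax7 0.621 and 0.764, a difference of 0.76 (limma adjusted p = 0.0231, n = 2 each), a call lost without Neo replicate 2, Pax7 replicate 1 or Pax7 replicate 2 (limma adjusted p 0.0623 to 0.0957). It was also lost with a replicate block (limma adjusted p = 0.0660). Stra6, the membrane receptor for retinol, fell to 0.543 ± 0.337 scaled exon reads at 96 h from 1.91 ± 0.291 at 0 h, on 2 to 8 and 16 to 20 mates per library (limma adjusted p = 0.00473, n = 3 each), and that call held without any 1 library.

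Other genes of retinol transport were also called, some of them in a single system or on few reads. In Pax7 against Neo 4 of the 13 were tested, with 3 called higher and 1 lower, where 18.1% and 18.5% of all genes were. The 1 lower was Dgat1, at 2.88 and 2.76 FPKM in Neo and 2.07 and 1.89 in Pax7, named after its values were seen. At 96 h 8 were tested, with 1 called higher and 4 lower, where 16.5% and 17.3% of all genes were. Ttr, which carries retinol binding protein in plasma, fell at 12, 24 and 96 h from 4.33 ± 1.296 scaled exon reads, with log2 differences of -0.93, -0.94 and -0.72 (limma adjusted p = 0.0250, 0.0129 and 0.0299, n = 3 each). Each of its calls rested on single libraries: it was lost at 12 h without 0 h replicate 1 or 3 or 12 h replicate 2 or 3 (limma adjusted p 0.0612 to 0.131), at 24 h without 0 h replicate 3 (0.0766), and at 96 h without 0 h replicate 1 or 3 or 96 h replicate 3 (0.0592 to 0.188). Fabp5, a fatty acid binding protein that can also carry retinoic acid, was at 33.1 and 32.4 FPKM in Neo and 58.6 and 62.6 in Pax7, a difference of 0.89 (limma adjusted p = 0.00244), and held without any 1 library. Rbp4, the plasma retinol binding protein, was at 0.816 ± 0.0172 FPKM in Neo and 1.41 ± 0.126 in Pax7, a difference of 0.72 (limma adjusted p = 0.00678, n = 2 each). Between 24 and 96 h Rbp4 rose by 0.32 (limma adjusted p = 0.0139), a call that ended without 24 h replicate 2 (0.0601) or 96 h replicate 3 (0.0616).

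Of the 23 other retinol and retinal oxidoreductases, the aldo-keto reductase Akr1b3 was called lower in both systems. It had 503 ± 16.8 scaled exon reads at 0 h, then 433 ± 26.7, 413 ± 17.4 and 383 ± 22.6 at the later times (SD, n = 3 each), and 5.49 ± 0.325 FPKM in Neo against 3.43 ± 0.200 in Pax7. Its difference at 12 h was -0.22 (limma adjusted p = 0.00926), a call lost without 12 h replicate 2, the library that stood apart (-0.17, limma adjusted p = 0.0592), and in Pax7 against Neo -0.66 (limma adjusted p = 0.00655). Akr1b8 had 99.6 ± 5.63 scaled exon reads at 0 h, 78.6 ± 1.82 at 24 h and 64.3 ± 0.996 at 96 h, and was called lower at 24 h (-0.34) and between 24 and 96 h (-0.29) (limma adjusted p = 0.00181 and 0.00869), both held without any 1 library. Akr1b3, Akr1b8 and Akr1b10 belong to a family of similar sequence, so reads may be shared between them. Adh1, an alcohol dehydrogenase that oxidises retinol, was at 0.138 ± 0.0185 FPKM in Neo and 0.0197 ± 0.0143 in Pax7 (limma adjusted p = 0.0107, n = 2 each). In Pax7 Adh1 is deposited as 0.01 and 0.03 FPKM, near the rounding of the values to 2 decimals. It passed the filter only through Neo, where it is high, and with no filter its limma adjusted p was 0.0195. Its call was lost without Neo replicate 1 or Pax7 replicate 1 (limma adjusted p 0.0579 and 0.0520). Over the whole group, 4 of 13 tested genes were higher and 6 lower in Pax7 against Neo, where 36.6% of all genes were called, and 2 of 14 were higher and 4 lower at 96 h, where 33.8% were.

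Cyp2s1, a cytochrome P450 that can oxidise retinoic acid, was the 1 hydroxylase of this kind that passed the filter. It was at 106 ± 6.17 scaled exon reads at 0 h and 68.4 ± 7.52 at 24 h, a difference of -0.63 (limma adjusted p = 0.000752, n = 3 each), and the call held without any 1 library. In Neo it was 0.848 and 0.793 FPKM and in Pax7 0.545 and 0.694, not called.

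Few receptor genes were called in the ER-Pax7 libraries. At 96 h, where 33.8% of all genes were called, 1 of 6 tested receptor genes was, the retinoic acid receptor Rara (-0.36), and 1 of 7 cofactors, Ncor1 (0.13) (limma adjusted p = 0.00494 and 0.0479). In Pax7 against Neo, where 36.6% of all genes were called, 3 of 5 tested receptor genes were: Ppard was higher (0.35), and the retinoid X receptors Rxra and Rxrb were lower (-0.25 and -0.15) (limma adjusted p = 0.0371, 0.0282 and 0.0203, n = 2 each), and 2 of 6 cofactors, Ncor1 and Lcor, were higher. These receptors and cofactors were named after their values were seen, and their calls were not recomputed without single libraries. None of the receptors and cofactors was called by limma at 12 or 24 h.

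Of 25 genes known to respond to retinoic acid, 15 were tested in the ER-Pax7 libraries and calls went both ways. At 96 h 3 were higher and 5 lower, where 16.5% and 17.3% of all genes were. The share called in either direction at 96 h was 53.3%, where it was 33.8% over all genes. In Pax7 against Neo 0 of 12 were higher and 4 lower, where 18.1% and 18.5% of all genes were. The share called in either direction, 33.3%, was near the background of 36.6%, but every call was lower. Ret, a receptor tyrosine kinase, had 1.13 ± 0.302 scaled exon reads at 0 h, on 10 to 12 mates, and 2.66 ± 0.155, 2.82 ± 0.190 and 2.58 ± 0.652 at 12, 24 and 96 h (limma adjusted p = 0.0189, 0.00644 and 0.00724, n = 3 each). Its call at 24 h held without any 1 library. At 12 h it was lost without 0 h replicate 2 or 3 or 12 h replicate 1 or 2 (limma adjusted p 0.0512 to 0.0881) or in a model of those groups only (0.0562), and at 96 h without 96 h replicate 3 (0.0540). Hoxa5, a homeodomain factor, rose from 43.3 ± 8.40 to 61.8 ± 3.28 scaled exon reads at 96 h (limma adjusted p = 0.00063, n = 3 each) and held without any 1 library, while its call at 24 h (0.37, limma adjusted p = 0.0200) was lost without 0 h replicate 1 or 3 or 24 h replicate 3 (0.0720 to 0.116), and with no filter (0.0612).

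The other named genes of that group were lower in at least 1 comparison. Foxa1, a forkhead factor, had 242 ± 3.69 scaled exon reads at 0 h and 207 ± 15.1 at 12 h (-0.23, limma adjusted p = 0.0247, n = 3 each), lost without 0 h replicate 2 or 3 or 12 h replicate 1 (limma adjusted p 0.0664 to 0.150) and with no filter (0.0606). Meis2, a homeodomain cofactor, fell by 0.20 between 24 and 96 h (limma adjusted p = 0.0218), a call that ended without 24 h replicate 3 (0.0843) or 96 h replicate 1 (0.122). Zfp703, a zinc finger protein, was at 0.697 ± 0.0708 FPKM in Neo and 0.453 ± 0.00493 in Pax7 (limma adjusted p = 0.0140, n = 2 each), lost without either Pax7 library (0.0761 and 0.0718). The folds of genes with few reads depend on the pseudocount: over the alternatives the difference at 96 h ran from -1.84 to -0.32 for Stra6 and 0.30 to 1.23 for Ret.

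By pattern over the 12 ER-Pax7 libraries, the genes most like Dhrs3 among 10676 with a mean of at least 50 scaled exon reads were Gap43, a growth cone protein, Pgrmc1, a membrane-associated progesterone receptor component, Scarb2, a lysosomal membrane protein, Lrrn3, a leucine-rich repeat protein, and B4galt4, a galactosyltransferase. Pearson's r of log2 values with Dhrs3 was 0.994, 0.987, 0.982, 0.981 and 0.978, a description over libraries that share the same 4 groups. Gap43 had means of 379, 281, 257 and 252 scaled exon reads at 0, 12, 24 and 96 h, and B4galt4 475, 285, 273 and 246. Each of these falls was smaller in proportion than that of Dhrs3. In the Neo and Pax7 table, which did not enter the ranking, Gap43 was at 0.780 FPKM in Neo and 0.214 in Pax7, Scarb2 at 3.45 and 2.53, B4galt4 at 2.15 and 1.35, Lrrn3 at 1.51 and 1.25, and Pgrmc1 at 61.1 and 53.5. All 5 were called lower in Pax7 (limma adjusted p 0.00179 to 0.0128, n = 2 each), where 18.5% of all genes tested were called lower, with log2 differences from -1.49 for Gap43 to -0.19 for Pgrmc1.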

How the data were processed

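RNA-seq of 16 libraries was analysed from 2 deposited tables. TopHat, HOMER and edgeR are named, with mm10 (GRCm38), per the submitters' processing notes. For ER-Pax7 the authors counted exon reads and deposited signal values scaled to a common total, and for Neo and Pax7 they deposited FPKM over whole gene bodies, per the file headers. The authors' deposited log2 folds, p-values and FDR were used for comparison only. Gene length came from the deposited tables, and counting used no strand option per the file headers. Values were divided by TMM factors. Genes with at least 1 scaled read in 3 libraries (pseudocount 1, all 12 libraries in 1 model) or 0.1 FPKM in 2 (pseudocount 0.1) were tested with limma 3.58.1 (R 4.3.3; empirical Bayes, trend) and adjusted by Benjamini-Hochberg over all genes, threshold 0.05; the scripts were tested on simulated data. Whole reads were recovered from the scaled values (100% of low values whole within 0.1 reads); on these reads edgeR 4.0.16 called 994, 2043 and 5130 genes at 12, 24 and 96 h, and DESeq2 1.42.0 was a further alternative. Reads carry no molecular identifiers, so limits from counts cover counting error only. The genes and lists were chosen with earlier results of these data known. Named genes are all 9 members, up to 3 called pathway genes with the highest and 3 with the lowest log2 fold per comparison, and the 5 genes most correlated with Dhrs3. One gene that this rule names is not reported here.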

Additional observations from a re-analysis of the deposited data

How the results depend on the processing

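Alternatives were library totals, median-of-ratios factors, other pseudocounts, no filter, only the groups compared, edgeR, DESeq2, a replicate block, and leaving out each library, where a lone sample is assumed to vary like the other groups. Dhrs3 kept its direction against 0 h, and its direction and call in Pax7 against Neo, under every alternative run. The 4906 genes called in Pax7 against Neo became 1390 to 2277 when 1 library was left out, and the 3 members called became 1 to 2. The 24 genes called between 24 and 12 h became 53 with the replicate block, 98 with DESeq2 and 11 to 31 when 1 library was left out. The 1921 called between 96 and 24 h became 1259 to 1732, and the 1 member called became 0 to 1. The cause was not tested. Deviations of same-numbered libraries were weakly correlated (-0.0824 to 0.144), so numbers were not taken as pairs, and the block changed no member's call. With the block the genes called against 0 h rose from 992, 2063 and 5129 to 1246, 2538 and 5755 at 12, 24 and 96 h. Between 96 and 24 h they rose from 1921 to 2515, and in Pax7 against Neo they fell from 4906 to 3305.

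Only differences that were not called changed sign. With a pseudocount of 0.5 Crabp2 at 12 h was 0.00143. When 1 library was left out, the 12 h differences ran from -0.28 to 0.27 for Crabp2, -0.0499 to 0.0145 for Rdh11 and -0.11 to 0.26 for Aldh1a1, the 24 h difference from -0.0394 to 0.51 for Crabp2, and the 96 h differences from -0.32 to 0.0541 for Aldh1a1 and -0.0609 to 0.49 for Crabp2. Between 24 and 12 h Rdh10 ran from -0.0337 to 0.0791, and between 96 and 24 h Aldh1a1 ran from -0.0160 to 0.29, Crabp2 from -0.28 to 0.16 and Dhrs3 from -0.0748 to 0.0241. Depth limits the 6 scarce genes.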
